A study of Mus musculus with 27 samples.

Results

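The effect of a Western diet on gene expression in epididymal adipose tissue (EAT), the abdominal fat pad of male mice that lies along the testis and epididymis, was described here from 18 arrays, 9 of mice fed the control diet and 9 of mice fed the Western diet, out of the 27 arrays of the series. All mice were male C57BL/6J, were 5 weeks old on arrival, received a standard diet for 1 week and were then kept 3 per cage on their diet for 18 weeks. The control diet was AIN93G, a purified rodent diet. The Western diet carried 39.9% of its energy as fat and 34.0% as sucrose, and contained 20% butter, 1% soy oil and 0.15% cholesterol. The other 9 arrays, of mice on the Western diet with 0.05% quercetin, entered only the normalization and the shared estimate of the spread. Each array held the RNA of 1 mouse, so the arrays of a diet were separate animals, but which mice shared a cage is not given in the sources used here. Every gene with a probe set of its own was followed, 18193 genes in all, each by whichever of its probe sets was brightest on average across the 27 arrays.

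White adipocytes store triglyceride in a single large lipid droplet, take up glucose and fatty acids under the control of insulin, and secrete hormones such as leptin and adiponectin. The adipocytes of an expanding fat pad enlarge, and dying ones are surrounded by macrophages that take up their lipid, break it down in lysosomes and pass cholesterol on. The stroma of the pad, which holds progenitor cells, fibroblasts, vessels and immune cells, lays down and remodels the collagen around the adipocytes. The comparison asked which of these groups of genes differed between the 2 diets. The RNA came from whole tissue, and in such bulk samples more or fewer cells of a type and more or less RNA per cell cannot be told apart.

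Adipocyte genes were high on every array. The mean log2 signal of 18 adipocyte identity genes lay between 11.64 and 12.23 on the control arrays and between 11.96 and 12.15 on the Western arrays, although the extraction text given with the samples speaks of liver. Several arrays also had high signals of markers of neighbouring or other tissues or of other cell types. The mean over 11 testis markers was 12.40 on control replicate 6 and 8.15 on Western replicate 7, against medians of 4.28 and 2.90 on the 2 diets. Smooth muscle markers (12 genes) were high on control replicates 2 and 4, at 10.20 and 10.79, against a control median of 7.35. B cell markers (11 genes) reached 7.41 on control replicate 3, against a control median of 5.32. The stroma of the pad also holds immune cells, and the source of these B cell signals was not tested. This array is nevertheless counted below among those with markers of other tissues. Hepatocyte markers (13 genes) reached 7.54 to 10.49 on Western replicates 1, 4, 5 and 6 and 7.74 on control replicate 1, against medians of 3.69 and 4.52. None of the hepatocyte markers passed as higher on the Western diet and 1, Cyp2e1, passed as lower. The named genes that lost their call without these 10 arrays, or without a set of them, are listed with the overall counts. Median deposited signals ran from 26.8 to 54.4 on the control arrays and from 25.2 to 38.6 on the Western arrays. The log2 ratio of the 3′ to the 5′ actin probe set, a sign of RNA integrity, averaged 1.11 ± 0.289 in the control mice, against 0.785 ± 0.116 after Western feeding (SD, 9 arrays each), a difference of -0.327 with p = 0.00362 in an exact two-sided permutation test. The same ratio for Gapdh differed by -0.194 (exact p = 0.0548). The part of RNA integrity in the results was not tested.

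**Figure D1:**
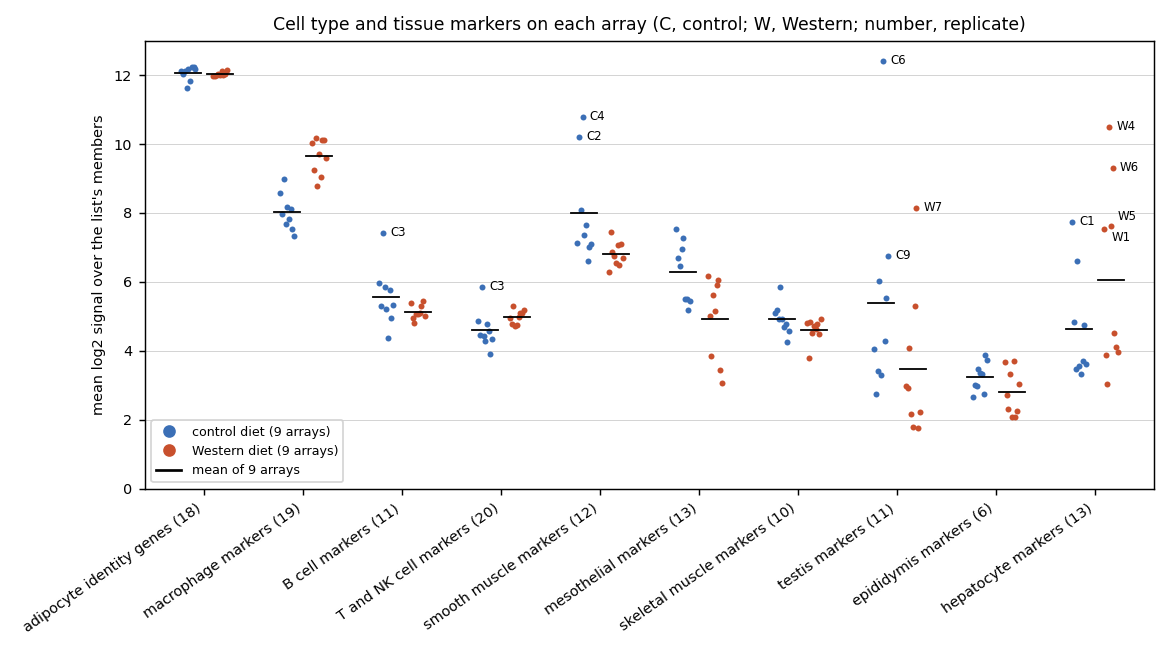
Mean log2 signal of each marker list (y axis) on the 9 control and 9 Western arrays, with the number of genes in each list in brackets and the mean of each diet as a bar. Adipocyte genes sat near 12 on all arrays, macrophage markers were higher on the Western diet with overlap (control up to 8.99, Western from 8.77), and single arrays stood apart for testis, smooth muscle, B cell and hepatocyte markers.

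Of the 18193 genes, 2052 rose and 1168 fell with the Western diet at an adjusted p under 0.05 (limma with Benjamini-Hochberg adjustment over all genes), which is 11.3% and 6.42% of the genes tested and 17.7% in all. Calls were thus higher in 63.7% of cases, a share that became 80.0% when the arrays were scaled by a shift to a common median in place of quantiles. That shift moved the median of all genes from 0.00 to 0.07 on the log2 scale. A log2 difference of at least 1 was reached by 543 of the genes called higher and 216 of those called lower. In 234 genes (1.29% of those tested) all 9 arrays of 1 diet lay beyond all 9 of the other, 171 of them higher and 63 lower on the Western diet. Of these 234 genes, 232 also passed the test. The macrophage markers and respiratory chain genes serve here only as context, with 16 of 19 macrophage markers higher and none lower, and 31 of 50 respiratory chain genes lower and none higher. Of the genes named by the rule given with the processing, 107 passed the test. Without control replicates 2 and 4, 11 of them no longer passed (Batf3, Cd22, Cyp26b1, Ffar2, Fmod, Lpin2, Ncam1, Prom1, Sfrp5, Siglecf and Slc39a8). Without control replicate 6 and Western replicate 7, 5 did not (Abcd2, Cd22, Cyp26b1, Ffar2 and Prom1), and without control replicate 3, 1 did not (Ffar2). Without the 5 arrays high in hepatocyte markers, 20 did not pass (Abcd2, Acadvl, Cd22, Cetn4, Col4a3, Crabp1, Cyp26b1, Dbt, Ffar2, Fgf13, Kdr, Lpin2, Myh11, Ncam1, Ndrg1, Prom1, Sfrp5, Siglecf, Slc39a8 and Tpm2). Without all 10 arrays, 15 did not (Car9, Cers4, Cetn4, Col4a3, Crabp1, Csf3r, Cyp26b1, Fmod, Ighm, Lpin2, Myh11, Ncam1, Prom1, Siglecf and Tpm2), and Ffar2 changed sign. Genes named below because they were among the few members of a list to move were chosen after their values were seen.

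**Figure D2:**
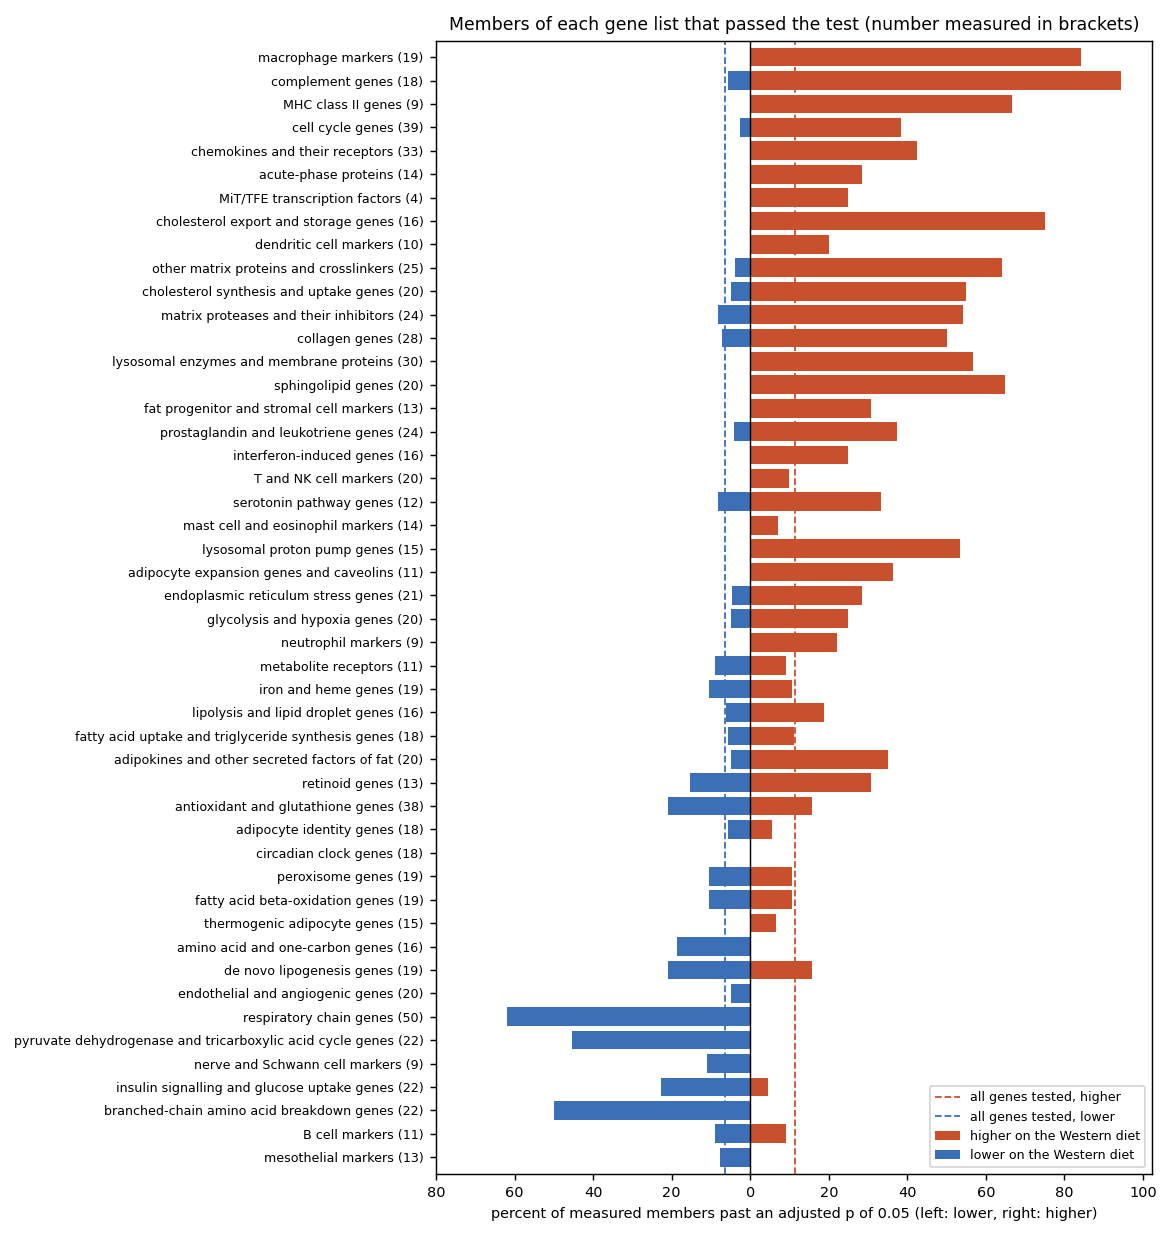
Percent of the measured members of each gene list that passed as higher (right, red) or lower (left, blue) on the Western diet, with the number measured in brackets and lists ordered by their median difference. Dashed lines mark the shares among all genes tested, 11.3% higher and 6.42% lower, and the lists of complement, macrophage, cholesterol export, MHC class II, sphingolipid and matrix genes extended farthest to the right.

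Among genes of above-median level outside the macrophage and respiratory chain lists, the largest rises included Tph2 of serotonin synthesis and Tfr2 of iron sensing. Further ones belonged to lysosomes and leukocytes. Of the macrophage markers left out of this ranking, Trem2 rose by 4.02, Gpnmb by 2.75 and Cd68 by 2.52. Tph2 encodes tryptophan hydroxylase 2, the rate-limiting enzyme of serotonin synthesis known best from neurons. Its log2 signals were 3.31, 4.92 and 9.70 (lowest, median and highest) on the control arrays and 9.08, 10.67 and 11.20 on the Western arrays. Western replicate 9 alone lay within the control range, below control replicate 3, and the difference was 5.05 ± 0.78 (SE, limma adjusted p = 6.23e-05). Ubd encodes the ubiquitin-like protein FAT10, which is induced by inflammatory cytokines. It ran from 6.38 over 7.63 to 10.07 on the control diet and from 11.07 over 11.71 to 11.90 on the Western diet. The groups did not overlap, with a difference of 3.69 ± 0.44 (adjusted p = 6.44e-06). Tfr2, a transferrin receptor that senses iron, had 4.72, 5.69 and 8.61 against 8.15, 9.55 and 10.41. Again Western replicate 9 was the lowest and control replicate 1 the highest, and the difference was 3.41 ± 0.45 (adjusted p = 2.08e-05). Saa3, an acute-phase serum amyloid made in mouse fat, had 5.91, 6.66 and 10.24 against 9.37, 10.59 and 11.18. Control replicate 3 lay among the Western arrays, and the difference was 3.25 ± 0.50 (adjusted p = 6.43e-05).

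Others of these 15 genes belong to leukocytes and coagulation. Rgs1, a regulator of G protein signalling in lymphocytes and macrophages, rose by 3.14, and Il7r, the receptor of interleukin 7, rose by 2.83. Slc15a3, a peptide and histidine transporter of lysosomes, rose by 2.77. F7, coagulation factor VII, had 3.92, 5.13 and 6.78 on the control diet and 6.87, 8.37 and 8.52 on the Western diet. Its groups were just apart, with a difference of 2.71 ± 0.42 (adjusted p = 6.88e-05). Adam8, a membrane protease of leukocytes, rose by 2.70, Slc37a2, a sugar phosphate transporter, by 2.53, and Igsf6, an immunoglobulin superfamily receptor, by 2.46. The kinase-like gene Cdkl4 rose by 2.56, Lipf, which encodes gastric lipase, by 2.53, and Kcnj14, an inward rectifier potassium channel, by 2.46. The array that was lowest on the Western diet differed among the 15 genes. Western replicate 4, the array with the highest hepatocyte and lowest macrophage markers of that diet, was lowest for 8 genes (Atp6v0d2, Rgs1, Il7r, Slc15a3, F7, Adam8, Slc37a2 and Igsf6). Western replicate 9 was lowest for the other 7 (Tph2, Ubd, Tfr2, Saa3, Cdkl4, Lipf and Kcnj14). On the control diet, replicate 3 was highest for 11 of the 15 genes, replicate 1 for 3 and replicate 6 for 1. Without the 10 arrays with markers of other tissues, 4 arrays remained per diet, and Tph2, Ubd and Saa3 differed by 6.15, 4.49 and 3.71. Control replicates 3 and 1, the highest and next highest control arrays for each of these genes, were among those left out, which favours larger rises. Western replicate 9, the lowest of its diet for each, was kept.

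**Figure D3:**
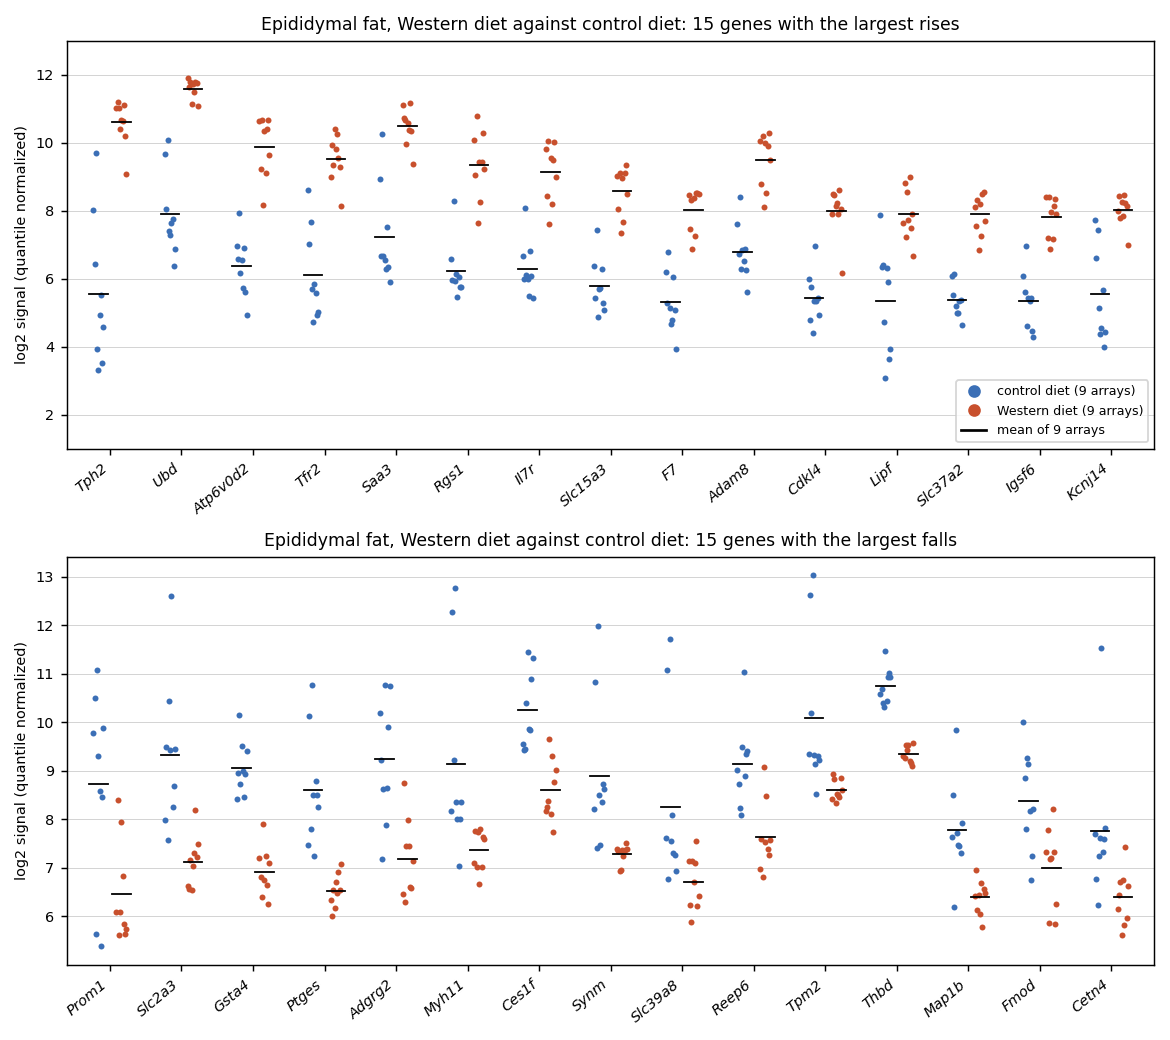
Log2 signal (y axis) of the 15 genes with the largest rises (top) and the 15 with the largest falls (bottom) among genes of above-median level that passed the test, with each array as a point and the mean of 9 arrays as a bar. Macrophage markers and respiratory chain genes were left out of this ranking. Ubd, Atp6v0d2, F7 and Slc37a2 rose and Gsta4, Ptges and Thbd fell with no overlap between the diets, while Myh11, Synm, Slc39a8 and Tpm2 had 2 control arrays far above the other 7 and Cetn4 had 1.

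The largest falls within the same limits differed in how many arrays carried them. For Gsta4, Ptges, Thbd, Ces1f, Reep6, Adgrg2 and Slc2a3, 5 to 9 of the 9 Western arrays lay below every control array. Gsta4, a glutathione transferase that removes the lipid peroxidation product 4-hydroxynonenal, had log2 signals of 8.43, 8.95 and 10.14 on the control diet and 6.25, 6.82 and 7.90 on the Western diet. The groups were apart, and the difference was -2.14 ± 0.30 (limma adjusted p = 3.51e-05). Ptges, the inducible synthase of prostaglandin E2, had 7.24, 8.50 and 10.78 against 6.00, 6.54 and 7.08. Its groups did not overlap either, with a difference of -2.08 ± 0.36 (adjusted p = 0.000186). Thbd, thrombomodulin, the receptor through which thrombin activates protein C, had 10.32, 10.70 and 11.48 against 9.11, 9.31 and 9.58. The difference was -1.41 ± 0.20 (adjusted p = 2.87e-05), and no Western array reached the lowest control array. Ces1f, a carboxylesterase, fell by 1.65 and Reep6, a protein that shapes the endoplasmic reticulum, by 1.504, both with overlap. Adgrg2, an adhesion receptor known from the epididymis, fell by 2.05. Slc2a3, a glucose transporter that sperm and testis also use, had 7.57, 9.43 and 12.61 against 6.55, 7.16 and 8.20. Control replicate 6 and Western replicate 7, those with high testis markers, were the highest of their diets, and the difference was -2.20 on all arrays and -1.92 without that pair, but -0.76 and not past the threshold when its probe sets were averaged. Without the 10 arrays with markers of other tissues, Gsta4, Ptges, Thbd, Ces1f, Reep6 and Adgrg2 had differences of -2.44, -1.97, -1.73, -2.28, -1.97 and -2.83, as large or nearly as large as on all arrays.

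For Myh11, Synm, Slc39a8 and Tpm2 a pair of control arrays carried much of the difference. Myh11, the myosin heavy chain of smooth muscle, had 7.04, 8.36 and 12.78 on the control diet and 6.66, 7.60 and 7.80 on the Western diet. Control replicates 2 and 4, the pair high in smooth muscle markers, stood far above the other 7 control arrays. The difference of -1.76 ± 0.54 (limma adjusted p = 0.0219) became -0.80 without them. Synm, an intermediate filament protein of muscle, fell by 1.62, Slc39a8, a zinc transporter, by 1.55, and Tpm2, a tropomyosin, by 1.47. Without control replicates 2 and 4 these differences were -0.91, -0.65 and -0.69, and Slc39a8 no longer passed. Without all 10 arrays Myh11 had -0.44 and Tpm2 -0.29, and neither passed. Cetn4, a centrin, had 11.53 on control replicate 6 against at most 7.83 on the other control arrays, and fell by 1.37 on all arrays and by 1.03 without that array and Western replicate 7. Its call was lost in 21 of 37 alternatives, among them the mean of its probe sets (-0.71) and the removal of the 10 arrays (-1.16). Prom1, the stem cell glycoprotein CD133, ranged widely on the control diet (5.39 to 11.09) and fell by 2.27 with a limma adjusted p of 0.0457. It lost the call without control replicates 2 and 4, at -1.68, and also with a median shift, at -2.18. Fmod, fibromodulin, a collagen-binding proteoglycan, fell by 1.39 and did not pass without the same 2 arrays, at -1.19. Map1b, a microtubule protein, fell by 1.39, but its probe set with the largest variance went the other way, with a difference of 0.17.

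Lysosomal genes were higher on the Western diet in many of their parts, from the proton pump that acidifies the organelle to its proteases, glycosidases and lipases. Of the 15 proton pump genes 8 were higher and none lower (all genes tested, 11.3% higher), with a median difference of 0.21 against 0.00 over all genes. Atp6v0d2, a pump subunit known from osteoclasts and macrophages, had 4.92, 6.55 and 7.93 on the control diet and 8.16, 10.36 and 10.68 on the Western diet. Its groups did not overlap, and the difference was 3.51 ± 0.51 (limma adjusted p = 3.78e-05). The other 7 pump genes that passed rose by much less, by 0.21 to 0.76, with Atp6v1b2 the highest of them. Atp6v1b2 did not pass when its probe sets were averaged or with its most variable one. Of 30 lysosomal enzymes and membrane proteins 17 were higher and none lower, with a median of 0.37. Ctsk, the collagen-degrading cathepsin K, had 7.12, 7.90 and 8.83 against 9.11, 10.05 and 10.77. Lgmn, legumain, an asparagine-specific protease, had 8.52, 9.42 and 9.95 against 10.29, 11.26 and 11.56. For both genes the groups were apart, with differences of 2.10 ± 0.30 and 1.73 ± 0.25 (both adjusted p = 3.51e-05). The remaining 15 passing members rose by 0.17 to 1.70. Of the 4 MiT/TFE transcription factors, which drive lysosomal genes through a short DNA element, Mitf rose by 0.75 ± 0.15 and the other 3 had differences of 0.31 to 1.09 and did not pass. Mitf itself depended on the probe set, with 0.17 and no call for its most variable one. Macrophage markers moved with these lists (mean log2 signal 7.32 to 8.99 on the control diet and 8.77 to 10.16 on the Western diet, 16 of 19 members higher, with Emilin2, Cd163 and Marco at -0.05, 0.28 and 1.31 not past the threshold). Their summed linear signal ran from 8596 to 19146 on the control diet and from 17124 to 42860 on the Western diet. Their part in the lysosomal differences was not tested.

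The DNA element read by the MiT/TFE factors has CACGTG at its core, often within the longer palindrome TCACGTGA. The 250 bases before the RefSeq start sites (build GRCm38.p6) were searched for these letters on both strands, which are the same for a palindrome, and every match to the longer form is also a match to the core. CACGTG stood in 10 of 28 lysosomal enzyme and membrane protein genes with a promoter in the table (35.7%), in 2 of 10 proton pump genes (20.0%), in 6 of 19 sphingolipid genes (31.6%) and in 8.73% of the 14452 tested genes with a promoter. TCACGTGA stood in 4, 1 and 0 of these genes and in 1.32% of all. The 5 matching promoters are shown, from up to 50 bases before the first match to up to 50 bases after it and no farther than the start site, 5′ to 3′ on the strand of the gene, with each TCACGTGA in capitals.
Atp6v1a, chr16:44139334-44139441, minus strand: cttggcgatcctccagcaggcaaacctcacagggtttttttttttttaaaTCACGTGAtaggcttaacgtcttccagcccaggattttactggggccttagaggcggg
Ctsa, chr2:164833710-164833772, plus strand: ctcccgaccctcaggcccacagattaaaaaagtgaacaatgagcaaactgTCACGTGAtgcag
Ctsd, chr7:142387869-142387976, minus strand: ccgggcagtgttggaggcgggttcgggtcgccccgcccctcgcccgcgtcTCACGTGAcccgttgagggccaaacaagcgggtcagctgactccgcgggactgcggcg
Gla, chrX:134601176-134601255, minus strand: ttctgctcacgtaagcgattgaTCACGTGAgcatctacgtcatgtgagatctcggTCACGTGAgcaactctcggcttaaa
Mcoln1, chr8:3500423-3500518, plus strand: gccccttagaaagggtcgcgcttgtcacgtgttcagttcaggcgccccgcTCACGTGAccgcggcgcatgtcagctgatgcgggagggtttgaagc
Atp6v1a, a catalytic subunit of the pump, rose by 0.73, Ctsa, cathepsin A, by 0.73, Ctsd, cathepsin D, by 0.64 and Gla, alpha-galactosidase A, by 1.18, while Mcoln1, the lysosomal calcium channel, had a difference of -0.02 and did not pass. These matches describe the letters in the window and were not tested for binding.

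Genes that make cholesterol and genes that release and export it were both higher. Among all genes tested, 11.3% were higher and 6.42% lower. Of 20 cholesterol synthesis and uptake genes 11 were higher and 1 lower, with a median of 0.50, and those that rose included enzymes from HMG-CoA synthase (Hmgcs1, 0.67) to the last reductase (Dhcr7). Dhcr7, which makes cholesterol from its direct precursor, had log2 signals of 6.06, 6.65 and 7.86 on the control diet and 6.67, 8.28 and 8.38 on the Western diet. Western replicate 9 stood apart below the other 8, and control replicate 1 was the highest of its diet, with a difference of 1.25 ± 0.23 (limma adjusted p = 0.000402). Insig1, which holds the sterol-sensing complex in the endoplasmic reticulum, rose by 1.12 ± 0.23 (adjusted p = 0.000854). The member that fell was Fdft1, squalene synthase, at -1.10. The sterol element written TCACNCCAC was found in the 250 bases before the start of 1 of the 16 members with a promoter, Hmgcs1, and in 1.27% of all, on either strand.
Hmgcs1, chr13:119690164-119690272, plus strand, with the match in capitals: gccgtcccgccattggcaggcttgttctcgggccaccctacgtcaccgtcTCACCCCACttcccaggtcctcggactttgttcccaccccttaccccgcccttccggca
Of 16 cholesterol export and storage genes 12 were higher and none lower, with a median of 0.53. Nceh1, an esterase that frees stored cholesterol, had 5.49, 6.02 and 7.45 against 7.33, 8.70 and 9.07. Only the lowest Western array, replicate 4, fell below the highest control array, and the difference was 2.12 ± 0.36 (adjusted p = 0.000138). Lipa, the lysosomal acid lipase, had 8.66, 9.18 and 9.84 against 10.07, 11.22 and 11.36. Its groups were apart, with a difference of 1.70 ± 0.25 (adjusted p = 3.99e-05). Of 20 sphingolipid genes 13 were higher and none lower, with a median of 0.35. Cerk, ceramide kinase, rose by 0.97 ± 0.21, and Cers4, a ceramide synthase, rose by 0.83 ± 0.17 on all arrays but did not pass without the 10 arrays with markers of other tissues, at 0.51. With those arrays left out, 13 synthesis and uptake genes, 7 export and storage genes and 8 sphingolipid genes were higher. The share of all genes higher in that setting is not given here, so these counts have none to be read against.

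**Figure D4:**
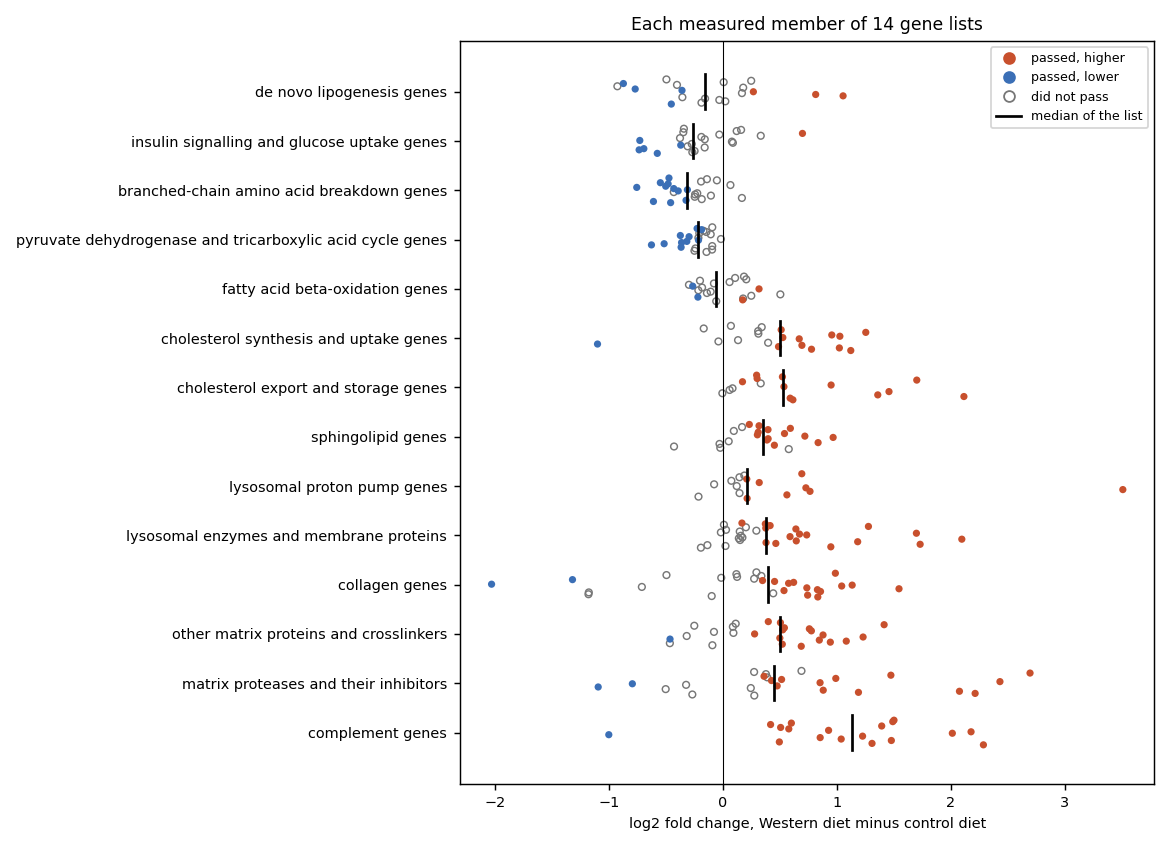
Log2 fold change, Western minus control (x axis), of each measured member of 14 gene lists, filled where it passed the test and open where it did not, with the median of each list as a bar. Branched-chain amino acid and tricarboxylic acid cycle genes lay mostly left of 0, while lysosomal, cholesterol, sphingolipid, matrix and complement genes lay mostly to the right, with Atp6v0d2 at 3.51 far beyond the other pump genes.

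The genes that mark the adipocyte itself changed little as a group. Of 18 adipocyte identity genes 1 was higher and 1 lower (all genes tested, 11.3% higher and 6.42% lower), and the median was -0.03. Several members had very high signals with hardly any spread, with control SDs of 0.023 for Lpl, 0.027 for Fabp4 and 0.041 for Adipoq. Whether differences at this level were compressed was not tested. Adipoq, adiponectin, had 13.42, 13.45 and 13.52 on the control diet and 13.29, 13.42 and 13.50 on the Western diet. The ranges overlapped, with 4 of 9 Western arrays below the lowest control array, and the difference was small, at -0.06 ± 0.04 (limma adjusted p = 0.307). Pparg, the master regulator of fat cells, differed by -0.02 ± 0.15, Pnpla2, the triglyceride lipase of the droplet, by -0.05 ± 0.10 and Lipe, hormone-sensitive lipase, by -0.19 ± 0.11, and none of these passed. Klf15, a factor of fasting metabolism, fell by 0.83 ± 0.20 (adjusted p = 0.00341). Lep, leptin, the satiety hormone that tracks fat mass, rose by 0.88 ± 0.25 (adjusted p = 0.0144). Its log2 signals on control replicates 1 to 9 were 12.91, 12.60, 12.78, 11.37, 11.06, 11.94, 12.28, 11.26 and 10.50, and on the Western diet they lay between 12.59 and 12.84. The control mice thus ran from well below the Western arrays to above them, while the 9 Western arrays hardly differed.

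Genes known to rise with expansion of the fat pad had the same shape. Mest, whose level tracks fat expansion in mice, had 9.57, 11.12 and 11.92 on the control diet and 12.28, 12.50 and 12.64 on the Western diet. The groups were apart, with a difference of 1.47 ± 0.29 (limma adjusted p = 0.000716). Sfrp5, a secreted inhibitor of Wnt signalling, had 7.75, 9.96 and 10.76 against 10.65, 10.75 and 11.06. Control replicates 1 and 3 lay within the Western range, and the difference was 1.32 ± 0.43 (adjusted p = 0.0331), which did not pass without control replicates 2 and 4, at 1.27. Fgf13, an intracellular member of the fibroblast growth factor family, rose by 1.51 ± 0.43, from a control range of 7.58 to 11.28 to a Western range of 11.15 to 11.45. Trp53inp2 was the fourth of 11 expansion genes and caveolins to rise (0.73), none fell, and the caveolae genes Cav1, Cav2 and Cavin1 had differences between -0.05 and 0.08. Of 20 adipokines and other secreted factors 7 were higher and 1 lower, with a median of 0.03. All genes tested gave 11.3% higher and 6.42% lower. Metrnl, meteorin-like, rose by 1.64 ± 0.24, and Agt, angiotensinogen, fell by 1.36 ± 0.25 (adjusted p = 0.000342), from 8.66, 9.81 and 11.11 to 7.70, 8.63 and 8.89. Control replicate 3, the lowest of its diet for Agt, was the only control array among the Western ones. The others that rose were Sfrp5, Lep, Fgf21 (1.15), Inhbb (0.87), Rarres2 (0.63) and Angptl4 (0.35).

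**Figure D5:**
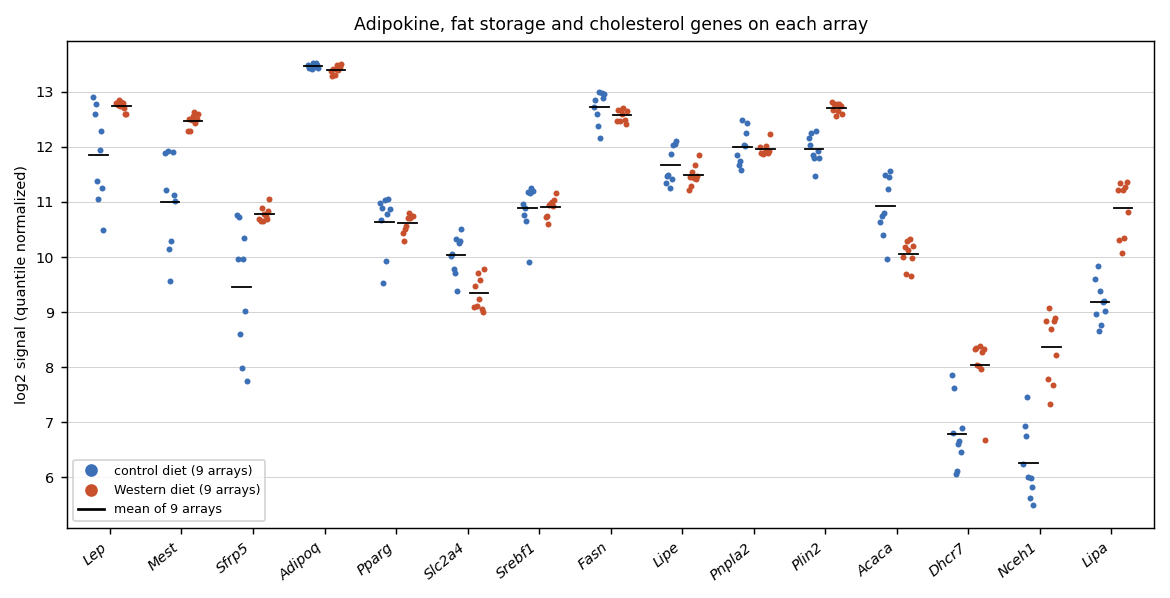
Log2 signal (y axis) of adipokine, fat storage and cholesterol genes, with each array as a point and the mean of 9 arrays as a bar. Lep, Mest and Sfrp5 were spread over the control mice and narrow on the Western diet, Adipoq sat near 13.4 on both diets, and Mest, Plin2 and Lipa had no overlap between the diets.

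Fatty acid synthesis genes moved in both directions. Of 19 de novo lipogenesis genes 3 were higher (Acss2, Scd2 and Pgd) and 4 lower (Acaca, Mlxipl, Thrsp and Tkt), with a median of -0.16. Over all genes tested, 11.3% were higher and 6.42% lower. Acss2, which activates acetate and is a target of the sterol pathway, had 9.48, 10.21 and 10.83 on the control diet and 11.06, 11.38 and 11.67 on the Western diet. The groups were apart, with a difference of 1.05 ± 0.16 (limma adjusted p = 5.07e-05). Acaca, acetyl-CoA carboxylase, had 9.97, 10.81 and 11.57 against 9.65, 10.12 and 10.32. Its groups overlapped, and the difference was -0.87 ± 0.20 (adjusted p = 0.00249), which did not pass when all its probe sets were averaged. Fasn, fatty acid synthase, differed by -0.16 ± 0.09 (adjusted p = 0.269) and Srebf1, its sterol-family activator, by 0.02 ± 0.12, and neither passed. Of 18 fatty acid uptake and triglyceride synthesis genes Lpin2 (0.32) and Agpat2 (0.31) were higher and Mogat1, a monoacylglycerol acyltransferase, was lower (-0.78), with a median of 0.03. Lpin2 had -0.07 with its most variable probe set. Of 16 lipolysis and lipid droplet genes 3 were higher and 1, the phosphodiesterase Pde3b (-0.34), was lower. Plin2, which coats lipid droplets in many cell types, had 11.48, 11.92 and 12.29 against 12.56, 12.74 and 12.81. The groups were apart, with a difference of 0.75 ± 0.09 (adjusted p = 4.59e-06). Hilpda, an inhibitor of the triglyceride lipase, rose by 0.97 ± 0.18 and Plin5 by 0.66.

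Genes of insulin action and of mitochondrial fuel use were lower in part. Of 22 insulin signalling and glucose uptake genes 5 were lower and 1, the glycogen synthase Gys2 (0.70), was higher, with a median of -0.26 (all genes tested, 6.42% lower). Slc2a4, the insulin-responsive glucose transporter GLUT4, had 9.38, 10.06 and 10.51 on the control diet and 9.001, 9.24 and 9.78 on the Western diet. The groups overlapped, with a difference of -0.70 ± 0.15 (limma adjusted p = 0.00193). Pik3r1, the regulatory subunit of phosphatidylinositol 3-kinase, fell by 0.74 ± 0.15 and Irs1, the first insulin receptor substrate, by 0.73 ± 0.17. Gys1 (-0.58) and Pdpk1 (-0.37) were the others that fell, and Pik3r1 did not pass when its probe sets were averaged. Of 22 branched-chain amino acid breakdown genes 11 were lower and none higher, with a median of -0.32. Ivd, isovaleryl-CoA dehydrogenase of the leucine route, had 9.22, 9.75 and 10.53 against 8.75, 9.01 and 9.39. Its groups overlapped a little, with a difference of -0.76 ± 0.18 (adjusted p = 0.00363). Dbt, a subunit of the branched-chain ketoacid dehydrogenase, fell by 0.61 ± 0.17, and the other 9 by 0.31 to 0.55. Of 22 pyruvate dehydrogenase and tricarboxylic acid cycle genes 10 were lower and none higher, with a median of -0.22. Pdhb and Pdha1, the subunits of the first pyruvate dehydrogenase enzyme, fell by 0.63 ± 0.12 and 0.52 ± 0.11. These counts depended on the scaling. With a shift to a common median, 3 insulin genes, 1 branched-chain gene, 1 cycle gene and 2 of the 50 respiratory chain genes were lower, and the medians of the last 3 lists were -0.17, -0.08 and -0.05, against 0.07 over all genes.

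Fatty acid oxidation did not move as a group. Of 19 beta-oxidation genes 2 were higher and 2 lower (all genes tested, 11.3% higher and 6.42% lower), with a median of -0.06. The rises were in Acadl (0.32) and the carnitine carrier Slc25a20 (0.17), the falls in Acadvl (-0.27) and Hadh (-0.22). Acadl and Acadvl, dehydrogenases of long-chain and very long-chain fatty acids, thus differed in opposite directions, but with a median shift Acadvl did not pass. Of 19 peroxisome genes 2 were higher (Pex16 and Hsd17b4) and 2 lower (Pex6, -0.33, and Abcd2, -0.36), with a median of -0.04, and neither Pex6 nor Abcd2 passed with a median shift. Of 15 thermogenic adipocyte genes 1 was higher, with a median of -0.14. This gene was Otop1, a proton channel of brown fat, which had 3.15, 3.58 and 7.04 on the control diet and 6.10, 7.35 and 7.61 on the Western diet. Control replicate 3 lay among the Western arrays, and the difference was 2.89 ± 0.44 (limma adjusted p = 5.47e-05). Ucp1, the uncoupling protein that makes brown fat heat, was near the lowest measured values on most arrays, at medians of 1.21 and 1.06, and did not pass (-0.88 ± 1.09). Western replicate 3 had 9.59, control replicate 3 had 8.67 and control replicate 8 had 5.69. Of 11 metabolite receptors Ffar2, a receptor of short-chain fatty acids, was higher (0.42 ± 0.14) and Ffar4, a receptor of long-chain fatty acids, lower (-0.59 ± 0.19), with a median of 0.10. Neither held throughout, since Ffar2 had -0.09 without the 10 arrays with markers of other tissues and Ffar4 did not pass with a median shift.

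Matrix genes were higher in most of their classes (all genes tested, 11.3% higher and 6.42% lower). Of 28 collagen genes 14 were higher and 2 lower, with a median of 0.39. The 14 included the fibrillar chains Col1a1 (1.13), Col1a2 (0.45) and Col3a1 (0.62) and all 3 main chains of type VI collagen (Col6a1, Col6a2 and Col6a3, 0.74 to 0.83). Col12a1, a collagen that sits on fibrils, had 5.14, 7.21 and 7.84 on the control diet and 7.67, 8.42 and 8.63 on the Western diet. Most Western arrays lay above all control arrays, with a difference of 1.55 ± 0.29 (limma adjusted p = 0.000479). With its most variable probe set Col12a1 did not pass. The members that fell were the basement membrane chains Col4a3 (-2.03) and Col4a4 (-1.32), and without the 10 arrays with markers of other tissues no collagen was lower and Col4a3 had -1.07. Of 25 other matrix proteins and crosslinkers 16 were higher and 1, Tgfb3 (-0.47), lower, with a median of 0.50. Lum, the collagen-binding proteoglycan lumican, had 8.63, 9.40 and 10.59 against 10.34, 11.06 and 11.37. Control replicate 1 reached into the Western range, and the difference was 1.41 ± 0.23 (adjusted p = 0.000109). Lox, lysyl oxidase, which crosslinks collagen, had 8.21, 8.69 and 9.65 against 9.27, 10.01 and 10.47. The groups overlapped little, and the difference was 1.23 ± 0.19 (adjusted p = 6.88e-05), although its most variable probe set had 0.43 and did not pass. Of 24 matrix proteases and inhibitors 13 were higher and 2 lower, with a median of 0.45. Mmp12, macrophage elastase, rose by 2.43 ± 0.64, and those that fell were Mmp9 (-1.10) and the inhibitor Timp4 (-0.80). Of 13 fat progenitor and stromal markers 4 were higher (Fap, Cd248, Cd55 and Pdgfra) and none lower, with a median of 0.32. Fap, fibroblast activation protein, had 6.85, 7.72 and 8.61 against 8.62, 8.77 and 8.89. Its groups were just apart, with a difference of 0.92 ± 0.18 (adjusted p = 0.000698). Cd248, endosialin, a marker of stromal cells, rose by 0.69 ± 0.16.

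Vessel and lining cells gave few calls (all genes tested, 11.3% higher and 6.42% lower). Of 20 endothelial and angiogenic genes Kdr, the main receptor of vascular endothelial growth factor, was lower (-0.51 ± 0.15) and none was higher, with a median of -0.16. Kdr did not pass with a median shift. Of 13 mesothelial markers, which mark the lining of the abdomen, all had negative differences, with a median of -1.15, but only Krt19 passed (-3.61 ± 0.91), and it had -2.71 without control replicates 2 and 4. Of 9 nerve and Schwann cell markers Ncam1 alone passed (-2.14 ± 0.74), with -1.07 and no call without the same 2 arrays. Smooth muscle markers had Myh11 and Cnn1 (-3.77) lower among 12, and none of 12 passed without the 10 arrays with markers of other tissues. Of 10 skeletal muscle markers Ryr1 was higher (1.60), of 6 exocrine pancreas markers Cela1 was higher (1.35), and no marker of testis (11) or epididymis (6) passed in limma, with 2 testis markers lower at an unadjusted p under 0.05.

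The lists of complement, MHC class II and chemokine genes each held members that were higher (all genes tested, 11.3% higher and 6.42% lower). Of 18 complement genes 17 were higher and 1, C2 (-1.003), lower, with a median of 1.13. C3ar1, the receptor of the complement fragment C3a, had 6.78, 7.07 and 7.98 on the control diet and 8.10, 9.98 and 10.49 on the Western diet. No arrays overlapped, with a difference of 2.29 ± 0.35 (limma adjusted p = 5.46e-05). Itgax, the CD11c chain of complement receptor 4 on dendritic cells and fat macrophages, rose by 2.18 ± 0.34. Of 9 MHC class II genes 6 were higher and none lower, with a median of 0.80, led by Cd74, the invariant chain (0.94 ± 0.16), and the peptide loader H2-DMa (0.91 ± 0.21). Of 33 chemokines and receptors 14 were higher and none lower, with a median of 0.69. Ccl9 had 9.38, 9.72 and 10.99 against 11.19, 11.95 and 12.16. The groups did not overlap, with a difference of 1.87 ± 0.22 (adjusted p = 6.44e-06). Ccl8, a chemokine that draws monocytes, rose by 1.56 ± 0.30. Of 16 interferon-induced genes 4 were higher (Oas1a, 1.01 ± 0.13, Oasl2, Cmpk2 and Irf7) and none lower, with a median of 0.26. Without control replicate 3, which was high in B cell markers, 8 were higher. The count over all genes also grew without that array, from 2052 to 2360 higher. Of 14 acute-phase proteins 4 were higher (Saa3, Orm2, Saa1 and Serpina3n), with a median of 0.65.

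Among the lists of single immune cell types, 2 of 20 T and NK cell markers were higher (Il7r and Klrd1, 0.72 ± 0.18), with a median of 0.23. Over all genes tested, 11.3% were higher and 6.42% lower. The T cell receptor genes Cd3e, Cd3d and Cd3g had -0.01, -0.02 and -0.09. Of 11 B cell markers Cd22 was higher (0.90 ± 0.31) and Ighm, the heavy chain of IgM, lower (-0.63 ± 0.18), with a median of -0.58. Control replicate 3 was the highest control array for both. Cd22 lost its call in 23 of 36 alternatives, and Ighm did not pass with a median shift, at -0.47, or without the 10 arrays, at -0.57. Of 10 dendritic cell markers Itgax and Batf3 (0.64 ± 0.19) were higher, with a median of 0.53. Of 9 neutrophil markers S100a8, a calcium-binding alarmin (1.91 ± 0.34), and Csf3r, the receptor of granulocyte colony-stimulating factor (0.72 ± 0.18), were higher. The median of the neutrophil list was 0.14, and its other members ran from -0.81 (Camp) to 0.79 (Trem1) and did not pass. Of 14 mast cell and eosinophil markers the eosinophil lectin Siglecf passed (1.48 ± 0.46), but at log2 signals of 0.72 to 4.86, and with a floor of 32 its difference was 0. Of 24 prostaglandin and leukotriene genes 9 were higher and 1, Ptges, lower, with a median of 0.31. Hpgds, the synthase of prostaglandin D2 in blood cells, had 3.54, 4.31 and 4.50 on the control diet and 5.51, 6.84 and 7.77 on the Western diet. The ranges did not meet, with a difference of 2.61 ± 0.35 (limma adjusted p = 2.34e-05). The leukotriene genes Alox5ap (1.39), Ltc4s (0.62), Lta4h (0.35) and the receptor Cysltr1 (1.42) were among those that rose, while Alox5 (0.32) did not pass. Macrophage markers were higher on the same diet, as given above, and their part in these differences was not tested.

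The serotonin pathway had 4 of 12 members higher (Tph2, Htr2b, Gch1 and Maoa) and 1, Maob (-0.61), lower, with a median of 0.23. The shares over all genes tested were 11.3% higher and 6.42% lower. Htr2b, the serotonin 2B receptor, had 0.08, 0.87 and 3.06 on the control diet and 2.66, 5.36 and 6.30 on the Western diet. It was low throughout, its groups overlapped through control replicate 1 and Western replicates 2 and 6, and the difference was 3.68 ± 0.55 (limma adjusted p = 5.06e-05). Gch1, which starts the synthesis of the cofactor that Tph2 needs, rose by 0.89. With a floor of 32 the difference of Htr2b was 0.53, so its size depended on the floor. Tph1, the form of the enzyme known from gut and mast cells, had 0.31 and did not pass, and neither did Ddc, at -0.16. Of 39 cell cycle genes 15 were higher and 1, Cks1b (-0.29), lower, with a median of 0.77. Tk1, thymidine kinase of S phase, had 3.59, 4.73 and 5.63 against 5.93, 6.60 and 7.33. The groups were apart, with a difference of 1.95 ± 0.30 (adjusted p = 6.47e-05). Mki67, the proliferation marker Ki-67, rose by 1.32 ± 0.30. Without control replicate 6 and Western replicate 7, which were high in testis markers, 29 cell cycle genes were higher. Calls over all genes also moved with the arrays left out. Without control replicate 6 alone, 1872 of all genes were lower, against 1168 on all arrays. How far the 29 calls were particular to this list was not tested.

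Antioxidant genes split. Of 38 antioxidant and glutathione genes 6 were higher and 8 lower (all genes tested, 11.3% higher and 6.42% lower), with a median of 0.00. Hmox1, heme oxygenase, had 5.06, 7.02 and 7.91 on the control diet and 7.87, 8.21 and 8.66 on the Western diet. The groups touched only at control replicate 3 and Western replicate 9, with a difference of 1.46 ± 0.29 (limma adjusted p = 0.000843). The other rises were in Sod3, Gpx7, Mgst2, Srxn1 and Gsto1 (0.29 to 0.82). The falls beside Gsta4 were in Gpx3 (-1.26), Gsta3 (-0.87), Gstt1, Mgst3, Sod1, Prdx3 and Gstp1 (-0.56 to -0.23), and with a median shift 2 of the 8 remained past the threshold. Of 19 iron and heme genes Slc11a1, the metal pump of phagosomes (1.71 ± 0.27), and Hmox1 were higher and Alas2 (-0.77) and Alad (-0.78), enzymes of heme synthesis, lower. Of 13 retinoid genes 4 were higher (Aldh1a2, Rarres2, Aldh1a3 and Dhrs3) and 2 lower. These were Crabp1, a retinoic acid binding protein (-2.37 ± 0.72), which was low on all arrays, and Cyp26b1, which degrades retinoic acid (-1.46 ± 0.48). Crabp1 had -0.14 and no call with a floor of 32, and Cyp26b1 lost its call in 10 of 36 alternatives, with -1.25 without control replicates 2 and 4. Of 21 endoplasmic reticulum stress genes 6 were higher and 1, Xbp1 (-0.25), lower, with a median of 0.16. Atf3, a stress-induced transcription factor, rose by 1.91 ± 0.33 and Sdf2l1, a chaperone partner, by 0.98 ± 0.22. Of 20 glycolysis and hypoxia genes 5 were higher, led by Car9, a carbonic anhydrase (0.92 ± 0.20), and Ndrg1 was lower (-0.46 ± 0.14). Car9 had 0.19 and no call with a floor of 32, and Ndrg1 had -0.34 and no call with a median shift. Of 16 amino acid and one-carbon genes Prodh, proline dehydrogenase (-1.34 ± 0.23), Asns, asparagine synthetase (-0.59 ± 0.15), and Phgdh (-0.28) were lower. Prodh had 7.63, 8.10 and 9.36 against 6.22, 7.12 and 7.61, with no overlap. Of 18 circadian clock genes none passed in limma, 2 were lower and none higher at an unadjusted p under 0.05, and their differences lay between -0.76 and 0.57.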

How the data were processed

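Total RNA of EAT, taken once per mouse, was labelled with biotin and hybridized to 1 mouse Affymetrix array per animal. The deposited intensity values are probe set signals that the authors computed with Microarray Suite and GeneSpring. Judged from the values, they are linear and not scaled to a common level between arrays. From these, signals were normalized by quantiles over 27 arrays, values under 1 were set to 1, and log2 was taken. Of 45101 probe sets, 64 controls, 932 of several genes and 9160 without a gene name were left out, and 34945 with 1 gene gave 18193 genes (34741 of these probe sets were matched to RefSeq), each represented by the probe set with the highest mean. Of the 10092 left-out non-control probe sets, 402 were higher and 397 lower. Western minus control was tested with limma 3.58.1 in R 4.3.3, fitting the 3 diets of the 27 arrays together, with a variance trend and Benjamini-Hochberg adjustment. SE is limma's moderated standard error. Array labels placed samples in groups, and replicate numbers did not pair them. Gene names come from the platform annotation, which can be old, updated through RefSeq. More than 1 probe set was present for 9010 genes, and in 25 of them these passed in opposite directions. Simulated data for this comparison held all 18193 genes, with independent normal noise of 1 SD per gene shared by the diets. Log2 changes were planted only in genes above the median signal. Of changes of 0.5, 1 and 2, 69.7%, 92.5% and 98.5% were recovered, with 9 false calls. Outlying arrays and spreads that differ between the diets were not simulated.

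The members, the 54 gene lists and the rule for named genes were chosen with earlier results of these data known. Named were the 15 largest rises and 15 largest falls past the threshold with a mean above the median of all genes (6.46 on the log2 scale), leaving out macrophage and respiratory chain genes, the 2 passing members of each list with the largest differences, and 11 genes fixed by name (Lep, Adipoq, Pparg, Slc2a4, Srebf1, Fasn, Pnpla2, Lipe, Mest, Sfrp5 and Ucp1). Lists are described by counts and medians, without a set test. Promoters come from RefSeq (GRCm38.p6). Alternatives covered the normalization, floor, pseudocount, filter, choice of probe set, limma's settings, a replicate block, the methods' test, thresholds and each array left out, and, chosen only with the data in view, the removal of arrays showing markers of other tissues. The number of arrays limits the precision. Plots used matplotlib 3.10.9 under Python 3.11.15.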

Additional observations from a re-analysis of the deposited data

Results flagged for a closer look

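Among 256 groups of 9 arrays looked at (the named genes and marker list means, by diet), 21 held an array farther from its neighbour than Dixon's test allows, where chance gives about 1 in 20, or 12.8. Control replicate 3 stood above the other control arrays for Atf3 (log2 signal 8.26, next 7.26), Cd22 (7.71, next 5.54), Hilpda (8.51, next 7.51), Oas1a (8.13, next 7.48), Rgs1 (8.29, next 6.57) and the mean of the T and NK cell markers (5.85, next 4.85). Western replicate 9 stood below the other Western arrays for Cdkl4 (6.16, next 7.9), Dhcr7 (6.67, next 7.97), Kcnj14 (6.98, next 7.79), Otop1 (6.1, next 6.93) and Tph2 (9.08, next 10.2) and above them for Pnpla2 (12.24, next 12.01). Control replicate 6 was high for Cetn4 (11.53, next 7.83), Reep6 (11.04, next 9.49) and the testis marker mean (12.4, next 6.75) and low for Srebf1 (9.9, next 10.65). Cers4 was low on control replicate 4 (6.97, next 7.82) and Cyp26b1 on Western replicate 8 (2.8, next 4.6). Lpin2 was high on Western replicate 4 (8.62, next 8.17) and Ucp1 on Western replicate 3 (9.59, next 1.31). The skeletal muscle marker mean was low on Western replicate 2 (3.79, next 4.5).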

How the results depend on the processing

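The main counts were 2052 genes higher, 1168 lower and 234 without overlap. Without normalization they were 1108, 709 and 62. A median shift gave 2323 higher and 580 lower, with 143 apart. The probe set with the largest variance gave 758 lower and array weights 1937 lower. The methods' test (Welch's across the 3 diets, then Tukey's) with Benjamini-Hochberg adjustment gave 1348 and 652. An adjusted p under 0.01 left 1220 and 481, and a log2 difference of at least 1 left 543 and 216. After the data were seen, arrays with markers of other tissues were left out. Without the 5 high in hepatocyte markers 608 were lower and 735 apart, without control replicate 3 561 were apart, and without all 10 arrays 3663 were apart, where 4 arrays per diet overlap less easily than 9. Leaving out 1 array gave 1793 to 2360 higher, 921 to 1872 lower (the latter without control replicate 6) and 238 to 561 apart (the latter without control replicate 3). The actin ratio differed by -0.361 to -0.264 and that of Gapdh by -0.237 to -0.149. With quantile-normalized signals the Gapdh ratio differed by -0.190 (exact p = 0.0473). The numbers shared by the diets did not pair the arrays (correlations -0.126 to 0.127, 2 of 9 above 0.1), and a replicate block gave 1914 higher and 1054 lower. Of 107 named genes past the threshold, 97 kept their call with a median shift, 83 with the methods' adjusted test and 91 without the 10 arrays.

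Changes of sign touched mostly genes near 0. Pparg had 0.013 without normalization, 0.12 with a median shift, 0.0086 without control replicate 3 and 0.0092 without the hepatocyte-marker arrays, and leaving out 1 array gave -0.161 to 0.028. Pnpla2 had 0.10 with a median shift, 0.13 over all its probe sets and 0.32 with the most variable one, and leaving out 1 array gave -0.104 to 0.0075. Lipe had 0.074 over all its probe sets and 0.34 with the most variable one. Srebf1 had -0.13 with array weights, -0.102 to 0.066 with 1 array left out, and -0.031, -0.105 and -0.31 without the smooth muscle, testis and all 10 arrays. Ucp1 had 0.026 with a floor of 32, 0.37 without the hepatocyte-marker arrays and 1.11 without all 10. Siglecf had 0 with a floor of 32, which lies above its signals. Lpin2 had -0.074 and Map1b 0.17 with the most variable probe set, and Ffar2 had -0.091 without all 10 arrays. The cause of the other changes was not tested.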
